A study of Mus musculus with 4 samples.

Results

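The miR-297, miR-466, miR-467 and miR-669 families were examined as 1 group in C2C12 myotubes. The members are all miRNAs whose name carries the number of 1 of these families, and were taken by name from every sample. In all, 54 of 869 detected miRNAs met this rule, 6 of them from miR-297, 24 from miR-466, 9 from miR-467 and 15 from miR-669. By the arm of the hairpin, 29 members are 5p miRNAs, 23 are 3p miRNAs and 2, miR-466g and miR-466k, carry no arm in their name.

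C2C12 is an established mouse skeletal muscle line, labelled with the strain background 129/Rej, whose myoblasts fuse into myotubes in medium with little serum. The negative control (NC, 2 samples) was kept in high glucose DMEM with horse serum, and the treated group (GAA, 2 samples) in the same medium with 20 mM guanidinoacetic acid, the direct precursor of creatine. Small RNA was sequenced from both groups 6 days after the start of differentiation, in order to compare the miRNAs of myotubes formed with and without GAA. All samples came from 1 cell line, no label says whether the 2 samples of a group were separate cultures, and any p-value measures only the spread between these samples.

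A miRNA is cut from a hairpin precursor, and the bases from position 2 to 8 of the mature strand, the seed, pair with target mRNAs. The miR-297, miR-466, miR-467 and miR-669 families are known from mouse and rat and lie mostly in a large intron of Sfmbt2, which encodes a Polycomb group protein that represses transcription. Sfmbt2 is an imprinted gene best known for its role in the placenta, and its intronic cluster arose through repeated copying of a few hairpins. The clustered miRNAs are therefore very similar in sequence, and a short read can match many copies equally well.

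In the GENCODE M21 annotation of GRCm38, Sfmbt2 lay at chr2:10370510-10595253 on the plus strand, and 81 precursor genes of the 4 families were annotated in the genome. Of these, 71 lay in intron 11 of the 23-exon Sfmbt2 transcript (chr2:10461473-10523944, 62.5 kb), within a stretch of 51.6 kb, and 0 of them overlapped a Sfmbt2 exon. The intron held 5 precursors of miR-297, 23 of miR-466, 14 of miR-467 and 29 of miR-669. The copy number differed widely between names, with 12 copies of miR-669a, 10 of miR-467a and 8 of miR-466b. A mature miRNA of 65 of the 71 intronic precursors was detected in at least 1 sample. The match was by name, so that a read counts for every copy of its name and does not show which copy it came from. The 6 other precursors were those of miR-466l, miR-669g, miR-669h, miR-669i, miR-669j and miR-669k. Of these 6, 3 lay 104.8 to 107.4 kb from the start of Sfmbt2 and 3 lay 145.6 to 147.6 kb from it, near the far end of the cluster. A further 48 miRNA genes with other names were annotated in Sfmbt2, and 0 of them matched a miRNA with a value by name. A gene whose symbol is not formed like a miRNA name could not match, so this does not show that these genes were silent.

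**Figure D1:**
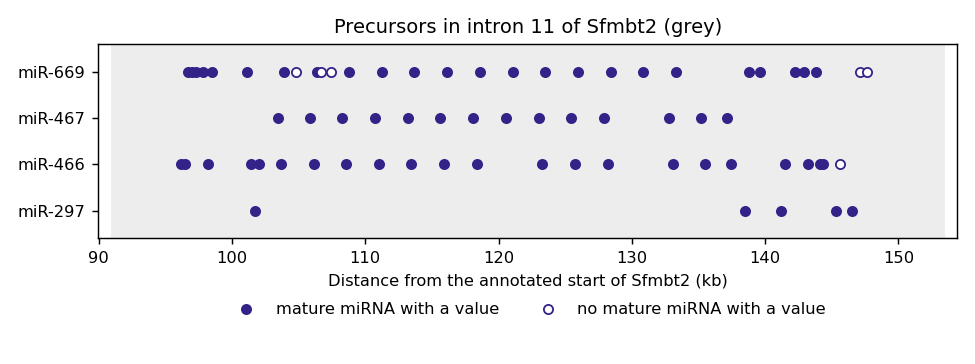
Precursor genes of the 4 families along intron 11 of Sfmbt2 (grey), by distance from the annotated start of the gene in kb, with 1 row per family. Filled circles mark the 65 precursors with a detected mature miRNA of their name and open circles the 6 without. All copies of a name are marked alike. Copies of miR-466, miR-467 and miR-669 alternate through the middle of the cluster.

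Mature sequences are shown for the repeats within them. Whether such repeats underlie the identical values of members described below was not tested. The RefSeq table for GRCm38.p6 held 2 of the 54 members, miR-466k and miR-466i-3p, and 6 miRNAs of the same families without a value in these samples. All 8 come from outside Sfmbt2. They are written 5′ to 3′ with the seed in capitals.
miR-466k: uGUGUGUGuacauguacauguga
miR-466i-3p: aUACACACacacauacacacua
miR-466j: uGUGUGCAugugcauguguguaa
miR-466q: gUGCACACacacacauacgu
miR-467f: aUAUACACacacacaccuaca
miR-467g: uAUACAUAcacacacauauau
miR-467h: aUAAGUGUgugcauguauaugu
miR-669n: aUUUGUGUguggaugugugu

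Purines and pyrimidines alternate along these strands, with GU repeats in one group and AC repeats in the other. The strand of miR-466k (chr3:85467396-85467418, plus strand) begins with a GU repeat that fills its seed, and that of miR-466i-3p (chr13:17747552-17747573, plus strand) is almost wholly an AC repeat. Of the undetected miRNAs, miR-466q (chr3:28419988-28420007) lies within Tnik on the same strand. On the opposite strand, miR-467f (chr11:69635419-69635439) lies within Fxr2, miR-467g (chr5:34732872-34732892) within Grk4 and miR-669n (chr3:115979905-115979924) within Slc30a7. Whether they overlap exons of these genes was not examined. The miRNAs miR-466j (chr10:60960802-60960824) and miR-467h (chr9:115381898-115381919) lie within no other annotated gene. The letters UGUGUG or CACACA occurred in 8 of the 8 family sequences, and in 32 of the 1671 other mature mouse sequences of the table (1.92%). The longest run in which purine and pyrimidine alternate was 8 to 22 bases in the 8 sequences. In the other sequences its median was 4 bases, and 2.93% of them had a run of at least 8. These 8 sequences stand for themselves alone, since the remaining 52 members could not be read from the table.

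The deposited value of a miRNA is log2(RPM + 1), where RPM stands for reads per 1000000 mappable reads. From the steps between values, 1 read of NC-1 was worth 0.203 RPM and 1 of NC-2 0.211 RPM, and for GAA-1 and GAA-2 the worth was 0.180 and 0.177 RPM, which gave back the reads behind each value. The samples held 4732359 to 5657704 mappable reads. The share of these that were miRNA reads was 33.6% and 43.6% for NC, compared with 56.3% and 50.4% for GAA, so that the groups did not overlap and a fold change in RPM contains this shift. Values are therefore also given per 1000000 miRNA reads. All 7 myotube miRNAs examined, among them miR-1a-3p, miR-133a-3p and miR-206-3p, were present in every sample, with a summed level of 10480 and 13715 RPM for NC and of 11217.5 and 10533 RPM for GAA. This sum rests largely on miR-486a-5p. In 5 of the 7, miR-1a-3p, miR-133a-3p, miR-206-3p, miR-499-5p and miR-208b-3p, GAA lay below NC without overlap, which is the opposite of the order found for the families in RPM. The level of miR-133a-3p was 3059 and 3787 RPM for NC against 2251 and 2409 RPM for GAA, and that of miR-208b-3p was 18.7 and 17.8 RPM for NC against 3.05 and 1.41 RPM for GAA. The 10 examined miRNAs of pluripotent and trophoblast cells, from the miR-290 and miR-302 clusters, were at 0 in all 4 samples. The sum of 5 blood miRNAs was 9.75 and 9.09 RPM in NC and 20.8 and 15.2 RPM in GAA. Most of it was miR-142a-5p, at 6.09 and 7.18 RPM in NC and 16.9 and 13.4 RPM in GAA. Of the 5, GAA lay above NC without overlap for 2 and below for 1. The latter was miR-451a, at 2.03 and 0.845 RPM in NC and 0.719 and 0.177 RPM in GAA. The 2 neuronal miRNAs summed to 28.02 and 41.4 RPM in NC against 59.8 and 43.1 RPM in GAA. Nearly all of this was miR-9-5p, since miR-124-3p had only 1 or 2 reads in each sample. The 2 endothelial miRNAs summed to 10.99 to 17.96 RPM, and miR-122-5p of liver was at 0 in NC and at 3.05 and 0.354 RPM in GAA. The part of these sums in the results was not tested.

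The reads of the members were shared to an unusual extent. Of the 21 members with at least 10 reads over the 4 samples, 13 (61.9%) had exactly the values of another member in every sample and formed 6 sets, compared with 9 of 455 other miRNAs (1.98%). With at least 20 reads the share was 13 of 15 members (86.7%), against 9 of 401 other miRNAs (2.24%). The sets joined copies with nearly the same name, namely miR-669a-3p with miR-669o-3p, miR-467a-5p with miR-467b-5p, miR-669a-5p with miR-669p-5p, miR-467a-3p with miR-467d-3p, miR-466a-3p with miR-466e-3p, and miR-466b-3p with miR-466c-3p and miR-466p-3p. Over all 54 members, 29 stood in 12 such sets, but at 1 or 2 reads identical values can arise without shared reads.

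Part of the reads had also been divided between names. The recovered number was not whole, within 0.02 reads, in at least 1 sample for 11 of 54 members (20.4%), and for 38 of 815 other miRNAs (4.66%). All 11 belonged to miR-466. The values of miR-466a-3p and miR-466e-3p came in steps of a read divided by 13, and those of miR-466b-3p, miR-466c-3p and miR-466p-3p in steps of a read divided by 14. The single names within each of these 2 sets could not be told apart. The other 13 members of miR-466 had whole reads, and miR-466c-5p, miR-466d-3p and miR-466g among them had values of their own.

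All members were rare in these myotubes. The most abundant pair, miR-669a-3p and miR-669o-3p, averaged 5.36 RPM over the 4 samples and stood at rank 294 of 869, while the most abundant miRNA of a sample reached 60553 to 108587 RPM. The pair miR-467a-5p and miR-467b-5p followed at rank 299 with 5.04 RPM. The highest number of reads of any member was 19 in both NC samples, 52 in GAA-1 and 35 in GAA-2. Between 10 and 14 of the detected members of a sample rested on at most 1 read, and 16 or 17 members per sample had at least 5 reads. A count of 0 allows up to 3 reads, which is 0.609 and 0.634 RPM for NC and 0.539 and 0.530 RPM for GAA, so that a member at 0 was below detection at this depth and not shown to be absent.

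With identical values counted once, the NC samples had a summed family level of 26.7 RPM (95% Wilson interval 22.4 to 31.6) for NC-1 and 23.1 RPM (19.1 to 27.8) for NC-2. GAA-1 reached 42.5 RPM (37.5 to 48.4), and GAA-2 reached 34.3 RPM (29.8 to 39.5). Both GAA samples lay above both NC samples, with means of 24.9 ± 2.52 RPM in NC and 38.4 ± 5.82 RPM in GAA (SD, n = 2 each), a 1.54-fold difference. Per 1000000 miRNA reads the same sums were 79.5 and 53.0 in NC and 75.5 and 68.0 in GAA, so that the groups overlapped. Their means were then 66.2 ± 18.7 and 71.8 ± 5.28 (SD, n = 2 each), a 1.08-fold difference that was smaller than the spread between the NC samples. The intervals cover counting error only, since amplified reads without molecular identifiers are not independent molecules. In these bulk samples, fewer cells with a miRNA and less of it per cell cannot be told apart.

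**Figure D2:**
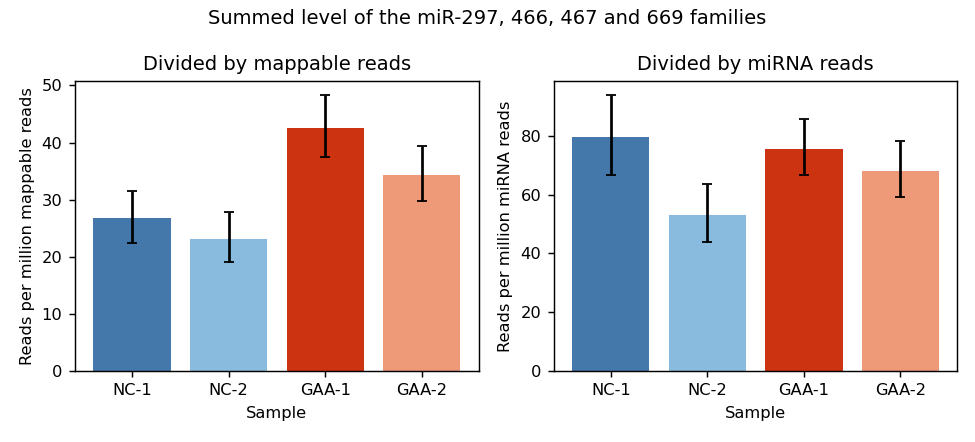
Summed level of the families in each sample, per 1000000 mappable reads (left) and per 1000000 miRNA reads (right), with identical values counted once. Error bars are 95% Wilson intervals of the reads. The GAA samples stand at 42.5 and 34.3 RPM above the NC samples at 26.7 and 23.1 RPM on the left, and the 4 samples overlap between groups on the right.

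The families differed in level and in how far the groups lay apart. The miR-669 family had a summed level of 6.90 and 6.97 RPM in NC and of 16.5 and 10.8 RPM in GAA, which is 6.94 ± 0.0491 against 13.7 ± 4.06 RPM (SD, n = 2 each) and a 1.97-fold difference. Both GAA samples were above both NC samples, and GAA-1 stood furthest out. For miR-466 the levels were 7.002 and 6.01 RPM in NC and 10.9 and 10.6 RPM in GAA, a 1.65-fold difference without overlap. For miR-467, the family with the highest level in NC, they were 11.8 and 9.30 RPM in NC and 14.9 and 12.7 RPM in GAA, a 1.31-fold difference, again without overlap. The miR-297 family was near the limit of detection, with 1.02 and 0.845 RPM in NC and 0.719 and 1.24 RPM in GAA, and its groups overlapped. Per 1000000 miRNA reads, miR-669 remained without overlap by a narrow margin, with 20.6 and 16.0 in NC and 29.4 and 21.4 in GAA. On that scale miR-466 had 20.9 and 13.8 in NC and 19.4 and 21.04 in GAA. The miR-467 values were 35.1 and 21.3 in NC and 26.5 and 25.3 in GAA, so that the groups of both families overlapped.

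The NC and GAA samples were then compared miRNA by miRNA with limma on log2(RPM + 1). With the cutoffs used by the study, an adjusted p under 0.01 and more than 1 on the log2 scale in either direction, 0 of 54 members were called, as were 0 of all 869 miRNAs (0%). The paper applied its cutoffs to read counts with edgeR, a test for counts, and reported differentially expressed miRNAs. The comparison here is not a repeat of that test. The lowest Benjamini-Hochberg adjusted p of a member in limma was 0.205, which was also the lowest of all miRNAs. This adjustment can give the same value to miRNAs with different p. The lowest limma p before it was 0.00709 for the members and 0.00122 for all miRNAs. Before adjustment, 6 of 54 members (11.1%) and 152 of 869 miRNAs (17.5%) had a limma p under 0.05. A single comparison of 2 samples with 2 cannot give an exact permutation p below 0.333.

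By the order of the 4 values, both GAA samples lay above both NC samples for 21 of 54 members (38.9%), and the same order was found for 38.6% of all miRNAs. In RPM the members' share was thus close to that of all miRNAs. The opposite order, GAA under NC throughout, was found for 2 members (3.70%), against 5.52% of all miRNAs. These 2, miR-466d-5p and miR-466n-5p, had 0 reads in GAA-1 and 1 read in each other sample, and GAA-2 ranked below NC only because 1 read is worth less RPM in the deeper sample. The remaining 31 members overlapped between the groups. After division by miRNA reads, GAA lay above NC for 10 members (18.5%), where the share among all miRNAs was 18%, and below NC for 4 (7.41%), where it was 13.5%. With median-of-ratios factors as the divisor, GAA lay above NC for 15 members (27.8%), against 18% of all miRNAs, and below NC for 4 (7.41%), against 14.6%. The members' share above NC was thus close to the background by 2 of the 3 divisors and higher by the other, a difference that was not tested.

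A value in all 4 samples was available for 27 members. Among these, both GAA samples were above both NC samples for 13 and below for 0, and the shares over all 497 miRNAs with a value in every sample were 56.5% and 5.23%. After division by miRNA reads GAA was above NC for 3 of the 27 (11.1%), against 21.9% of the 497, and with median-of-ratios factors for 8 of the 27 (29.6%), again against 21.9%. Several of the 13 share their reads and are not independent. The median log2 fold change was 0.22 over the 54 members and 0.22 over all miRNAs, which is the value of a miRNA with 2 reads in GAA-2 and 0 in the other samples. That of the 27 members in every sample was 0.23, against 0.42 over the 497 miRNAs. After division by miRNA reads the medians were 0.11 over the 54 members and 0.05 over all miRNAs. The log2 fold changes of the members ran from −0.32 to 0.93, 40 of them positive and 14 negative, and 0 members exceeded a change of 1 in either direction, whereas 39 of all miRNAs did. With an added 1, the scale understates the change of miRNAs at such low levels.

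**Figure D3:**
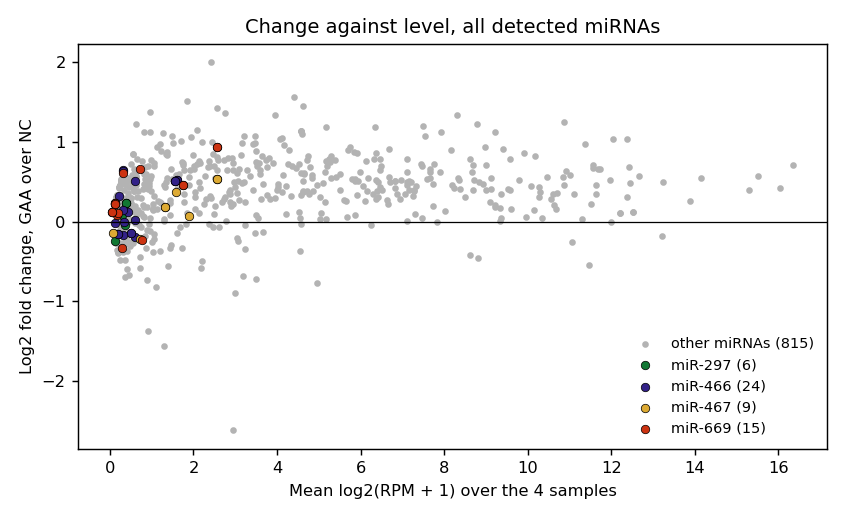
Log2 fold change of GAA over NC on the log2(RPM + 1) scale against the mean log2(RPM + 1) over the 4 samples, for the 54 members (coloured by family) and the 815 other miRNAs (grey). The members lie at the low end of the level axis, between −0.32 and 0.93 on the change axis and within the cloud of the other miRNAs.

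Among the 3p miRNAs, the pair miR-669a-3p and miR-669o-3p rested on 18 and 14 reads of the NC samples, and on 52 reads of GAA-1 and 31 of GAA-2. The levels were 3.31 ± 0.493 RPM in NC and 7.41 ± 2.73 RPM in GAA (SD, n = 2 each). This was the highest log2 fold change of the members, 0.93 ± 0.32 (SE), with a Benjamini-Hochberg adjusted p of 0.276 in limma. Both GAA samples were above both NC samples in RPM. After division by miRNA reads the log2 fold change was 0.53, and without GAA-1 it was 0.59 in RPM. Per 1000000 miRNA reads the miR-669 3p arms as a whole, which rest almost entirely on this pair, were at 10.88 and 6.78 in NC and 17.5 and 10.87 in GAA, so that GAA-2 fell just below NC-1.

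The pair miR-466a-3p and miR-466e-3p rested on 8 and 6.85 reads under NC, and on 15.7 and 13.8 reads under GAA. The levels were 1.54 ± 0.126 RPM in NC and 2.63 ± 0.263 RPM in GAA (SD, n = 2 each), a log2 fold change of 0.52 ± 0.22 (SE, limma adjusted p = 0.314). The trio miR-466b-3p, miR-466c-3p and miR-466p-3p was almost the same, with 1.48 ± 0.136 RPM under NC, 2.53 ± 0.263 RPM under GAA (SD, n = 2 each) and a log2 fold change of 0.51 ± 0.22 (SE, limma adjusted p = 0.316). In both sets the GAA samples stood clear of the NC samples in RPM. After division by miRNA reads the log2 fold change was 0.19 for each set, and with median-of-ratios factors it was 0.16 for each. The pair miR-467a-3p and miR-467d-3p overlapped between the groups, with 7 and 6 NC reads against 12 and 7 GAA reads.

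Of the 5p miRNAs, miR-467a-5p and miR-467b-5p had 19 reads in each NC sample, and 34 and 35 reads with GAA. Their levels were 3.94 ± 0.111 RPM in NC and 6.15 ± 0.0554 RPM in GAA (SD, n = 2 each), and the log2 fold change was 0.53 ± 0.20 (SE, limma adjusted p = 0.284). After division by miRNA reads it was 0.14, and with median-of-ratios factors 0.0941. The pair miR-669a-5p and miR-669p-5p counted 10 and 8 NC reads and 18 and 15 GAA reads, and its log2 fold change was 0.46 ± 0.23 (SE, limma adjusted p = 0.375). With the same divisors it was 0.12 and 0.0867. The close relatives of miR-467a-5p had lower log2 fold changes. For miR-467c-5p, whose reads were 10 and 6 for NC and 14 and 13 for GAA, the log2 fold change was 0.38 ± 0.26 (SE, limma adjusted p = 0.518), which became 0.0490 after division by miRNA reads and 0.0201 with median-of-ratios factors. It was 0.59 without NC-1 and 0.17 without NC-2. For miR-467d-5p, whose reads were 16 and 10 for NC and 18 and 14 for GAA, it was 0.08 ± 0.28 (SE, limma adjusted p = 0.875), the groups overlapped, and the sign turned to −0.28 after division by miRNA reads and −0.32 with median-of-ratios factors. The difference between these relatives was not tested.

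At lower levels, miR-669b-5p counted 1 and 2 NC reads and 7 and 5 GAA reads, at a log2 fold change of 0.66 ± 0.20 (SE, limma adjusted p = 0.267), and 0.49 after division by miRNA reads. Another 5 members with a value in every sample had the lowest changes. These were miR-669c-5p at −0.23 (4 and 4 NC reads, 6 and 1 GAA reads), miR-467e-5p at −0.22 (6 and 2, then 4 and 2 reads), miR-466c-5p at −0.19 (3 and 3, then 4 and 1 reads), and miR-466b-5p and miR-466o-5p at −0.14 (0.2 and 5.2, then 0.7 and 3.4 reads each). All 5 overlapped between the groups, and their limma adjusted p ran from 0.629 to 0.845. Each of these signs turned when 1 sample was left out, with log2 fold changes up to 0.18 for miR-669c-5p and 0.08 for miR-466c-5p without GAA-2, 0.10 for miR-467e-5p without NC-1, and 0.37 for miR-466b-5p and miR-466o-5p without NC-2.

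**Figure D4:**
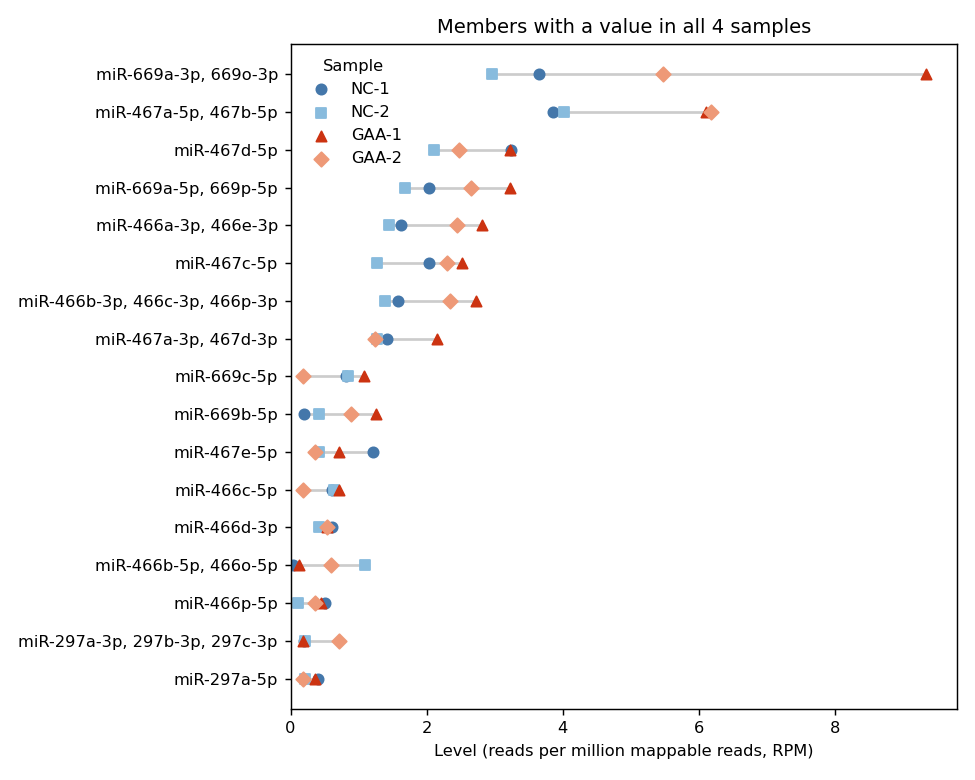
Level in RPM of the 27 members with a value in all 4 samples, with 1 marker per sample and members with identical values on 1 line. The GAA markers stand to the right of both NC markers for miR-669a-3p, miR-467a-5p, miR-669a-5p, miR-466a-3p, miR-467c-5p, miR-466b-3p and miR-669b-5p and those that share their values, and the markers of the groups overlap in the other lines.

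With identical values counted once, the arms of the hairpins were not equally represented. Summed over the families, the 5p arms had 17.0 and 14.9 RPM under NC and 22.8 and 19.8 RPM under GAA, or 16.0 ± 1.45 against 21.3 ± 2.11 RPM (SD, n = 2 each), a 1.33-fold difference. The 3p arms had 9.09 and 8.19 RPM under NC and 19.6 and 14.3 RPM under GAA, or 8.64 ± 0.640 against 16.9 ± 3.71 RPM (SD, n = 2 each), a 1.96-fold difference. Both arms were higher in the GAA samples without overlap in RPM. Per 1000000 miRNA reads the 3p arms kept this order, with 27.1 and 18.8 in NC and 34.7 and 28.4 in GAA, while the 5p arms overlapped, with 50.6 and 34.2 in NC and 40.5 and 39.3 in GAA.

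As a share of the family reads, which does not depend on the total that reads are divided by, the 5p arms held 65.1% of NC-1 (95% Wilson interval 57.0 to 73.3) and 64.6% of NC-2 (55.8 to 73.4). They held 54.1% of GAA-1 (47.7 to 60.4), and 57.7% of GAA-2 (50.5 to 64.5). Both GAA samples were below both NC samples, with means of 64.9% ± 0.388 in NC and 55.9% ± 2.55 in GAA (SD, n = 2 each), a difference of −8.98 percentage points. The intervals of all 4 samples overlapped, and the difference was not tested. Among all other miRNAs the 5p share was 45.6% and 52.0% in NC and 49.4% and 43.6% in GAA, without such an order. Without miR-669a-3p and miR-669o-3p the 5p share of the families was 75.8% and 74.1% in NC and 69.6% and 69.0% in GAA, which left a difference of −5.59 percentage points. The share itself depends on the count, since counting identical values once leaves out part of the reads divided between names. With every row summed, the 5p share was 54.4% and 56.3% in NC and 44.7% and 49.9% in GAA. The 5p arms were then not the larger part in GAA, and the difference was −8.06 percentage points.

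Within families, the 3p arms of miR-669 had 3.65 and 2.96 RPM under NC and 9.88 and 5.48 RPM under GAA, a 2.32-fold difference, while its 5p arms had 3.25 and 4.01 RPM under NC and 6.65 and 5.30 RPM under GAA, a 1.65-fold difference. The 3p arms of miR-466 had 3.81 and 3.54 RPM under NC and 7.16 and 6.71 RPM under GAA, a 1.89-fold difference. The miR-466 5p arms were closer together, with 2.58 and 2.47 RPM under NC against 3.02 and 2.66 RPM under GAA. The miR-467 family was read mainly from its 5p arms, which had 10.4 and 7.82 RPM under NC and 12.6 and 11.3 RPM under GAA. Per 1000000 miRNA reads the order turned for the miR-466 5p arms, with 7.68 and 5.66 for NC above 5.37 and 5.27 for GAA, and the miR-467 5p arms overlapped, with 30.8 and 17.9 for NC against 22.3 and 22.4 for GAA. On that scale GAA stayed above NC for the miR-466 3p arms, with 11.4 and 8.11 for NC against 12.7 and 13.3 for GAA. The miR-669 5p arms were at 9.67 and 9.20 for NC against 11.8 and 10.5 for GAA.

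**Figure D5:**
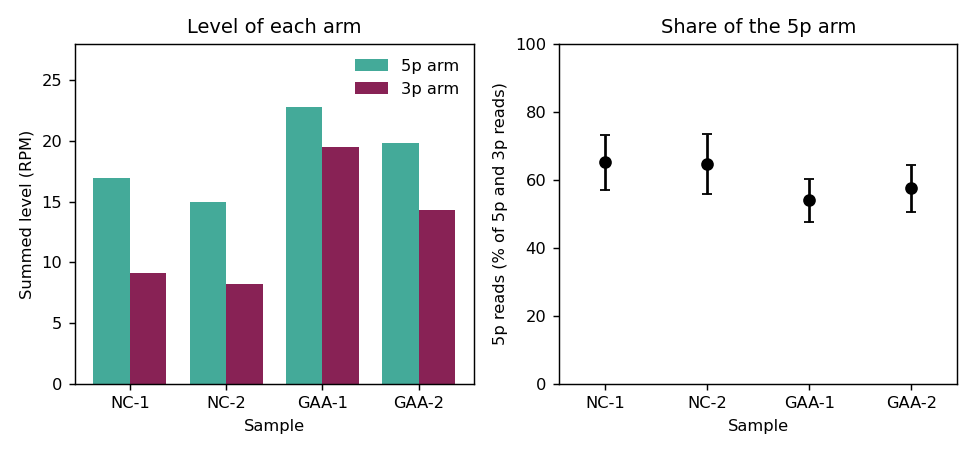
Left, summed level in RPM of the 5p and 3p arms of the families in each sample, with identical values counted once within each family and arm. Right, percent of 5p and 3p reads on 5p arms, with 95% Wilson intervals and identical values counted once over all members. The 5p share is 65.1% and 64.6% for NC, 54.1% and 57.7% for GAA, and the intervals overlap.

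More members were detected in the GAA samples. A read was found for 35 and 36 members in NC and for 45 members in each GAA sample, which is 64.8% and 66.7% against 83.3% and 83.3%, while the detected share of all miRNAs was 72.7% and 71.6% in NC and 80.7% and 79.7% in GAA. The GAA samples also held more miRNA reads. With each sample thinned to as many miRNA reads as NC-1 holds, the expected number of detected members was 35 and 33.0 for NC, and 36.0 and 38.4 for GAA, while that of all miRNAs was 632 and 595 for NC, and 618 and 620 for GAA. The thinned numbers of the members did not overlap between the groups and those of all miRNAs did, and the difference was not tested. With at least 2 reads, 25 members were counted in each NC sample, and 31 and 33 in GAA-1 and GAA-2. With at least 5 reads the numbers were 16 and 17 in NC and 17 in each GAA sample, so that the groups were close at this limit. With at least 10 reads they were 8 and 5 in NC and 15 and 13 in GAA, so that the groups lay apart again. These counts by limit were not thinned to equal depth.

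By pattern, 27 of 54 members (50%) were found in all 4 samples, as were 57.7% of the other miRNAs. A value in GAA samples alone was found for 13 members (24.1%, other miRNAs 16.0%) and in NC samples alone for 2 (3.70%, other miRNAs 8.83%), namely miR-297b-5p with 2 reads and miR-467e-3p with 1 read. In both GAA samples and in 0 NC samples, 6 members (11.1%) had reads, against 26 of 815 other miRNAs (3.19%), and the reverse was found for 0 members and 7 other miRNAs. The 6 were miR-466h-3p, miR-466i-5p, miR-466m-5p, miR-467c-3p, miR-669m-5p and miR-669o-5p, and none of them exceeded 4.5 reads in a sample. Among them, miR-466m-5p, miR-467c-3p and miR-669m-5p had 1 read in each GAA sample. All members were rare while the other miRNAs included abundant ones, and the GAA samples held more miRNA reads. Shares among miRNAs of like level were not compared.

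Of these, miR-466i-5p had 2.63 and 3.63 GAA reads and the lowest p of the members (log2 fold change 0.64 ± 0.13 SE, limma adjusted p = 0.205). For miR-466h-3p, with 2 and 4.5 reads, the limma adjusted p was 0.231, and for miR-669o-5p, with 2 and 4 reads, it was 0.219. Since their GAA levels of 0.533 to 0.577 RPM lay near the value of 3 reads and the NC samples were at 0, no fold could be given, and the log2 fold changes depend on the added 1.

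Most members could be placed in the Sfmbt2 intron by name. All annotated precursors of 48 members lay there, and 3 members, miR-297a-5p, miR-297a-3p and miR-466f-3p, had precursors both there and elsewhere. The other copy was Mir297-1 (chr7:10958437-10958512, minus strand) for miR-297a, and Mir466f-4 (chr13:71107089-71107209, plus strand) for miR-466f. The 48 members had a summed level of 26.3 and 22.8 RPM in NC and 41.9 and 33.6 RPM in GAA, so that nearly all family reads carried the name of a clustered copy.

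The remaining 3 members came from outside the cluster. The precursor of miR-466i-5p and miR-466i-3p, Mir466i, lay at chr13:17747473-17747593 on the plus strand, within Cdk13 on the opposite strand and outside its exons. The precursor of miR-466k, Mir466k, lay at chr3:85467377-85467498 on the plus strand, within Gm37240 on the opposite strand and outside its exons. These 3 members had 0 reads in both NC samples, 2.63 reads together in GAA-1 and 7.63 in GAA-2. The reads of miR-466i-5p came in steps of a read divided by 8 and were thus shared with other names, and the AC and GU repeats of miR-466i-3p and miR-466k shown above also occur in other family miRNAs. Whether these reads came from the precursors outside the cluster was not tested.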

How the data were processed

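Small RNA from C2C12 myotubes was sequenced in 2 NC and 2 GAA samples. The authors mapped the filtered reads to GRCm38, quantified miRBase miRNAs by miRDeep2, and divided their reads by the mappable reads of the sample. Deposited were log2 values in the form log2(RPM + 1). A miRNA with 0 reads is left out of its sample's list and was set to 0 here. Mappable totals of 4732359 to 5657704 reads and the reads behind each value were recovered from the RPM steps. Because the deposited unit is log2 and not counts, no count model was fitted.

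All 869 miRNAs were fitted with limma 3.58.1 in R 4.3.3 (lmFit, eBayes with trend, condition as the only term) on log2(RPM + 1), without a filter, with Benjamini-Hochberg adjustment over all of them. A call needed more than 1 on the log2 scale in either direction and an adjusted p under 0.01. Members' levels were summed with identical values counted once, over all members for totals and 5p shares, and within each family and arm for those of families and arms. Named with fold change were the 12 members with the highest mean RPM, the 5 highest and 5 lowest log2 fold changes among members in all 4 samples, the 5 lowest p, and members with at least 2 reads in both samples of 1 group and 0 in the other. The members, lists and rules were chosen with earlier results of these data known. Alternatives were division by miRNA reads or median-of-ratios factors, a pseudocount of 0.1, filters of 10 reads in all or 1 RPM in every sample, no trend, a replicate block, and each sample left out. The crossed block and the count of identical values within a family and arm were added after seeing the data. No batch or date is given in the sources used here. Precursors were matched by name to GENCODE M21, and mature sequences came from RefSeq (GRCm38.p6).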

Additional observations from a re-analysis of the deposited data

How the results depend on the processing

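The count of called members was 0 under every alternative run. For all miRNAs it was 1 after division by miRNA reads and 1 after division by median-of-ratios factors, in both cases miR-208b-3p, which is no member and was named after its values were seen. With the replicate number as a block, 0 members and 0 of all miRNAs were called. The deviations of same-numbered samples had a weak negative correlation (−0.15 over 323 miRNAs), and the crossed pairing, chosen after seeing the data, also gave 0 calls. The number of members with both GAA samples above both NC samples was 21 of 54. It was 10 of 54 with miRNA reads as divisor and 15 of 54 with median-of-ratios factors. A filter of 10 reads gave 14 of 21 members, a filter of 1 RPM in every sample 12 of 15, and identical values counted once 13 of 37. With 1 sample left out it ran from 24 to 31, among 50 to 53 members. For the filters, the single count and the omissions, the share over all miRNAs was not computed. The number below was 2 of 54, and 4 of 54 with either other divisor. It was 0 of 21 and 0 of 15 with the filters of 10 reads and 1 RPM, and 1 of 37 with identical values counted once. With 1 sample left out, where 1 group is a single sample, it ran from 6 to 10, among 50 to 53 members. The median log2 fold change of 0.22 became 0.11 with miRNA reads and 0.0927 with median-of-ratios factors, 0.63 with a pseudocount of 0.1, 0.50 and 0.51 with the filters of 10 reads and 1 RPM, and 0.12 with identical values counted once. The log2 ratio of the summed level, 0.62, fell to 0.12 with miRNA reads and 0.0749 with median-of-ratios factors, and ran from 0.46 to 0.77 with 1 sample left out. The 5p share difference of −8.98 points became −5.59 without the miR-669a-3p pair and −8.06 with every row summed. At least 5 reads were found for 16 members in NC-1 and 17 in NC-2, GAA-1 and GAA-2. Of 238 alternatives for the 21 named members, 227 kept direction and call, 11 changed sign and 0 passed the thresholds, with a lowest adjusted p of 0.0640 in limma. The sign of miR-467d-5p turned to −0.28 with miRNA reads and −0.32 with median-of-ratios factors, and ran from −0.15 to 0.30 with 1 sample left out. Under the same omission the log2 fold change ran from −0.64 to 0.18 for miR-669c-5p, from −0.54 to 0.10 for miR-467e-5p, from −0.46 to 0.0839 for miR-466c-5p, and from −0.64 to 0.37 for miR-466b-5p and miR-466o-5p. Apart from the changes of divisor, filter, pseudocount and sample that define these alternatives, the cause was not tested. Depth limits most members, of which 10 to 14 of those detected in a sample had at most 1 read.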
